A study of Homo sapiens with 10 samples.

Results

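U2AF1, U2AF2, SF1, PUF60 and RBM39 encode proteins that act at the 3′ end of introns, and their own transcripts were followed here through the reads that cross their splice junctions. The genes were taken by name: an intron or exon of the deposited tables was given to a gene where its GRCh37 splice sites matched that gene in GENCODE release 44 lifted to that build. These 5 genes, of 10905 with a listed intron, held 102 of 126404 intron positions and 251 of 270665 exon positions. U2AF1 had 13 introns, U2AF2 had 19, SF1 had 23, PUF60 had 16 and RBM39 had 31, and all 5 genes passed the filter on low reads in every comparison.

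Poly(A)+ RNA was sequenced from A549 cells, an established human lung adenocarcinoma line, in 5 groups of 2 libraries. Cells received α-amanitin, an amatoxin that slows transcribing RNA polymerase II, at 1 or 2 μg/mL for 24 h, or DRB, which blocks the kinase activity needed for productive elongation, at 10 or 25 μg/mL, or DMSO as the control. The durations of the DRB and DMSO treatments are not given in the sources used here. The series asked how slow transcription changes RNA processing. The study's methods speak of bioreplicates, and the labels do not say whether the libraries of a group came from separate cultures, so a p-value here covers the variation among the libraries sequenced, which may be technical.

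The 3′ splice site is recognised in steps. SF1, the branch point binding protein, sits on the branch point, U2AF2 (the large subunit of U2AF) binds the pyrimidine tract, and U2AF1 (the small subunit) contacts the AG at the end of the intron, after which the U2 snRNP takes over the branch point. PUF60 resembles U2AF2 and acts on weak pyrimidine tracts, and RBM39 is a related protein that sulfonamide degraders can remove from cells. U2AF1, U2AF2, PUF60 and RBM39 carry a U2AF homology motif (UHM), a fold that grips other splicing proteins, and SF1 carries a ligand of that motif.

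Split reads, which cross a junction and can therefore only come from spliced RNA, numbered 2899344 to 6498515 per library, the fewest in replicate 1 of DRB 25 μg/mL, and replicates of every group differed by more than sampling noise. The files list an intron once its split, competing and unspliced reads reach 11 together, and give no count below 3. A gene sum at low depth therefore loses whole introns, and introns with 10 or fewer split reads made up 23.6% and 21.6% of those listed at DRB 25 μg/mL, against 9.90% and 10.1% in DMSO. At DRB 25 μg/mL the median gene had a log2 fold change of -1.02 under TMM scaling (trimmed mean of M values, in which genes with more reads weigh more) and -1.49 under scaling by total split reads. It was -0.03 over the 4643 genes tested when only introns listed in all 10 libraries were summed, and that fit is given beside the main one below. Introns missing from any library are left out of that fit, and TMM was computed anew on the rest. Its median is therefore not a corrected value for all genes. At DRB 10 μg/mL the median was 0.03 under TMM and 0.16 under total reads. Of the A549 and epithelial markers, KRT8, KRT18 and ALDH1A1 had at least 228 split reads in every library, KRT19, CDH1 and EPCAM were listed at 0, and AKR1C1 and AKR1B10 had 0 to 328 and 0 to 232, with 0 in both DRB 25 μg/mL libraries. Of 10 markers of other cells, 8 were listed at 0 throughout. LYZ had 6 split reads in 1 library of DRB 25 μg/mL and 0 elsewhere. The collagen gene COL1A1 had 479 and 353 at α-amanitin 1 μg/mL, 448 and 169 at 2 μg/mL, 85 and 11 at DRB 10 μg/mL and 70 and 0 at DRB 25 μg/mL, against 677 and 59 in DMSO, and the part of these differences in the results below was not tested.

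The acceptors on which the main splicing results turn are shown first, as 25 intronic and 5 exonic bases of GRCh37, with the AG of the site in capitals. The first pair precedes the alternative 67-nt exons of U2AF1, the next pair competes for one RBM39 donor, and the last pair lies 21 nt apart in SF1.
U2AF1 upstream exon (chr21:44521538-44521567, minus strand): cctttttatttttttttccccgcAGaccat
U2AF1 downstream exon (chr21:44520625-44520654, minus strand): aaagttgttgcgttttgtatttcAGaccat
RBM39 intronic acceptor (chr20:34301775-34301804, minus strand): tgtaatttcttattttttgatgcAGggtct
RBM39 acceptor of the next coding exon (chr20:34301014-34301043, minus strand): gaactttaagactattcttttacAGgtaca
SF1 unannotated acceptor (chr11:64535291-64535320, minus strand): gtagtctctcatgtctaccacccAGagccg
SF1 annotated acceptor (chr11:64535312-64535341, minus strand): gttggcaggaaatgctctcacgtAGtctct
Over 20 bases of the tract before the site, pyrimidines made up 90.0% at the upstream and 70.0% at the downstream U2AF1 exon, 70.0% at both RBM39 sites, and 75.0% at the unannotated and 45.0% at the annotated SF1 site. The median over 99833 annotated acceptors was 75.0%, and 0.3% of them held fewer pyrimidines than the annotated SF1 site. In the text, an intron is named by the exonic bases that flank it.

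Gene levels are given as CPM, the split reads of a gene relative to library size after TMM scaling, and fold changes were tested with limma, with p adjusted over all genes of the comparison and a threshold of 0.05. U2AF1 (minus strand of chromosome 21, 44513066 to 44527680) fell in both DRB groups. Its CPM was 228 and 265 at α-amanitin 1 μg/mL, 159 and 215 at 2 μg/mL, 172 and 184 at DRB 10 μg/mL and 174 and 158 at DRB 25 μg/mL, against 269 and 279 in DMSO. Every treated library was below both DMSO libraries, and the 3 lowest groups (α-amanitin 2 μg/mL and both DRB doses) overlapped. The log2 fold change was -0.61 ± 0.10 (SE) at DRB 10 μg/mL (adjusted p = 0.018, limma) and -0.76 ± 0.11 at DRB 25 μg/mL (adjusted p = 0.0029). At α-amanitin 2 μg/mL it was -0.55 ± 0.16 (adjusted p = 0.080), and passed as -0.58 over introns listed in all libraries (adjusted p = 0.035). Over introns listed in all libraries the value at DRB 25 μg/mL was -1.08 (adjusted p = 6.36e-06).

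U2AF2 (plus strand of chromosome 19, 56165512 to 56186082) was not called against DMSO in the main comparisons, and its call depended on the setting. Its CPM was 409 and 488 at α-amanitin 1 μg/mL, 356 and 458 at 2 μg/mL, 389 and 429.6 at DRB 10 μg/mL and 585 and 749 at DRB 25 μg/mL, against 439 and 538 in DMSO. The libraries of DRB 25 μg/mL were both above all others, and the other 4 groups overlapped their neighbours in the order of levels. The log2 fold change at DRB 25 μg/mL was 0.44 ± 0.16 (adjusted p = 0.062), 0.19 over introns listed in all libraries (adjusted p = 0.30), and -0.04 under scaling by total split reads. It passed as 0.40 with median-of-ratios factors (adjusted p = 0.037), 0.56 with only the 2 groups in the fit (0.044), 0.46 with all 10 libraries in one fit (0.049) and 0.60 without DRB 25 μg/mL replicate 1 (0.032).

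SF1 (minus strand of chromosome 11, 64532078 to 64546258) rose at DRB 10 μg/mL. Its CPM was 300.4 and 291 at α-amanitin 1 μg/mL, 336 and 303 at 2 μg/mL, 551 in each library of DRB 10 μg/mL and 363 and 437 at DRB 25 μg/mL, against 307 and 287 in DMSO. Both DRB groups stood above the rest without overlap, the lower dose the higher of the pair, and the α-amanitin groups overlapped DMSO. The log2 fold change at DRB 10 μg/mL was 0.90 ± 0.11 (adjusted p = 0.012), and 0.92 over introns listed in all libraries. The value at DRB 25 μg/mL passed the test as higher under TMM (0.42 ± 0.12, adjusted p = 0.029), but was 0.17 over introns listed in all libraries (adjusted p = 0.32) and -0.06 under scaling by total split reads.

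PUF60 (minus strand of chromosome 8, 144898514 to 144912879) fell at α-amanitin 2 μg/mL. Its CPM was 229 and 256 at α-amanitin 1 μg/mL, 165 and 195 at 2 μg/mL, 255 and 270.5 at DRB 10 μg/mL and 209.8 and 260.4 at DRB 25 μg/mL, against 283 and 336 in DMSO. Each treated library was below both DMSO libraries, and the α-amanitin 2 μg/mL pair was lowest, without overlap with another group. The log2 fold change there was -0.77 ± 0.13 (adjusted p = 0.030). For DRB 25 μg/mL it was -0.40 ± 0.15 (adjusted p = 0.066), and -0.66 over introns listed in all libraries, where it passed the test (adjusted p = 0.0012), as it did at -0.88 under total split reads (0.0025) and -0.45 with median-of-ratios factors (0.025).

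RBM39 (minus strand of chromosome 20, 34289269 to 34330234) fell in 3 treatments. Its CPM was 325 and 336 at α-amanitin 1 μg/mL, 204 and 237 at 2 μg/mL, 229 and 190.4 at DRB 10 μg/mL and 276 and 213 at DRB 25 μg/mL, against 366 and 425 in DMSO. DMSO and α-amanitin 1 μg/mL were each apart from the rest, and the 3 lower groups overlapped. The log2 fold change was -0.83 ± 0.12 at α-amanitin 2 μg/mL (adjusted p = 0.021), -0.92 ± 0.17 at DRB 10 μg/mL (adjusted p = 0.022) and -0.75 ± 0.18 at DRB 25 μg/mL (adjusted p = 0.014). Over introns listed in all libraries the last of these was -1.09 (adjusted p = 2.29e-05).

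**Figure D1:**
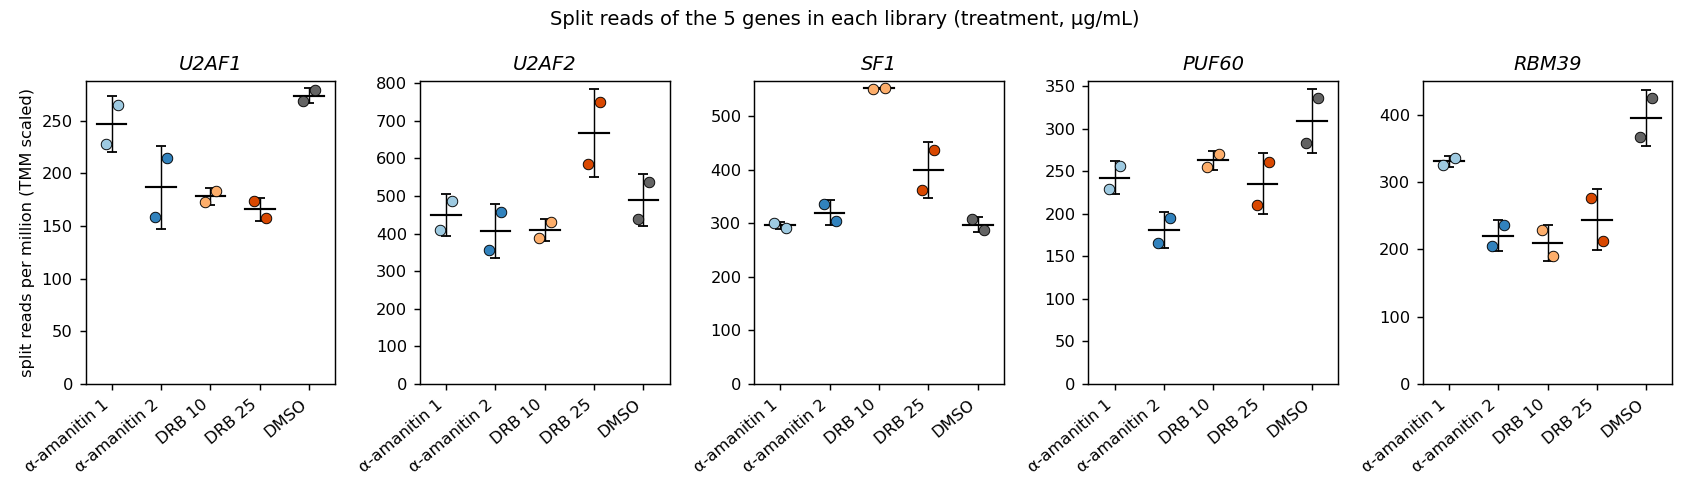
CPM (split reads scaled by TMM, linear axes from 0) of each gene in the 10 libraries. Points are libraries, horizontal bars group means and whiskers 1 SD (n = 2). SF1 at DRB 10 μg/mL (551 in each library) and U2AF2 at DRB 25 μg/mL (585 and 749) lie above DMSO, whereas every treated library of U2AF1, PUF60 and RBM39 lies below both DMSO libraries.

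Counted by comparison, 0 of the 5 genes passed the limma test at α-amanitin 1 μg/mL, as did 0% of 9600 genes. At an unadjusted p under 0.05 the same fit held 965 genes, 1 of them among the 5, PUF60 (-0.34 ± 0.13). At α-amanitin 2 μg/mL RBM39 and PUF60 fell and 0 rose, beside 6.33% of all genes called (2.46% higher and 3.88% lower). At DRB 10 μg/mL RBM39 and U2AF1 fell and SF1 rose, beside 14.8% called (8.27% higher and 6.53% lower). In cells given DRB 25 μg/mL U2AF1 and RBM39 fell and SF1 was higher, beside 61.3% of 9451 genes called (20.1% higher and 41.1% lower), so that 3 of 5 is near the share in the whole table. Relative to the median gene of that comparison under TMM, U2AF1 and RBM39 stood at 0.26, PUF60 at 0.62, SF1 at 1.43 and U2AF2 at 1.45.

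Several of these gene calls were lost when 1 library was left out. Such a refit leaves 1 library in a group and has less power, so a lost call need not have rested on that library. Calls over all genes in these refits are not given. At DRB 10 μg/mL 0 of the 5 genes were called when any 1 of the 4 libraries compared was left out. At α-amanitin 2 μg/mL the count was 0 without replicate 1 of that dose, without DMSO replicate 1 or without DMSO replicate 2, and 3 without replicate 2 of that dose. With every unlisted intron set to 10 reads, the most it could hold, PUF60 was not called at α-amanitin 2 μg/mL (adjusted p = 0.059), nor were SF1 (0.13), U2AF1 (0.25) and RBM39 (0.082) at DRB 10 μg/mL. For DRB 25 μg/mL, U2AF1 was called in each refit with 1 library left out (adjusted p between 0.0064 and 0.025), RBM39 was not called without DRB 25 μg/mL replicate 2 (adjusted p = 0.10) or DMSO replicate 2 (adjusted p = 0.084), and SF1 was called only in the refit without DRB 25 μg/mL replicate 1.

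**Figure D2:**
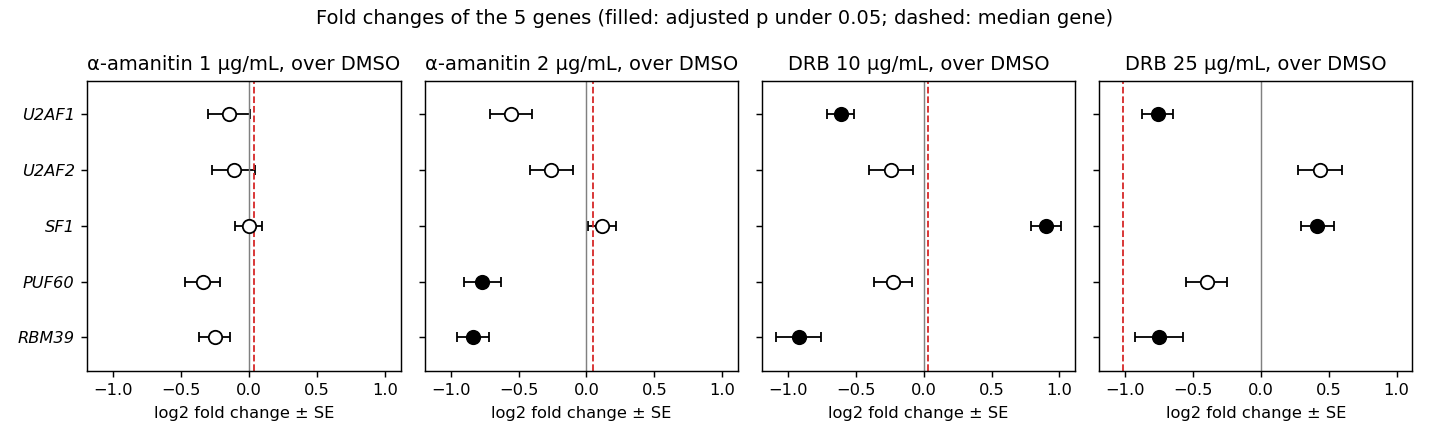
Log2 fold change over DMSO (horizontal axis, ± SE) of the 5 genes in each treatment, with filled points for an adjusted p under 0.05 and a dashed line at the median of all genes tested under TMM. RBM39 is filled and left of 0 in 3 treatments, and at DRB 25 μg/mL all 5 genes lie to the right of the median gene at -1.02. Over introns listed in all libraries, where fewer genes were tested, the median was -0.03.

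The doses of each drug were also compared directly. Between α-amanitin 2 and 1 μg/mL 0 of the 5 genes passed the limma test, as did 0% of all genes (1252 at an unadjusted p under 0.05); RBM39 was at -0.58 ± 0.12 and PUF60 at -0.42 ± 0.13 (adjusted p = 0.33 for each). Between DRB 25 and 10 μg/mL, where 63.3% of all genes were called (19.5% higher and 43.8% lower), U2AF2 was higher at the higher dose (0.68 ± 0.16, adjusted p = 0.015) and SF1 lower (-0.49 ± 0.11, adjusted p = 0.013). U2AF2 was at 0.07 under scaling by total split reads and was not called without DRB 25 μg/mL replicate 2 (adjusted p = 0.085), DRB 10 μg/mL replicate 1 (0.079) or DRB 10 μg/mL replicate 2 (0.062). SF1 was not called without DRB 25 μg/mL replicate 1 (0.065), DRB 10 μg/mL replicate 1 (0.063) or DRB 10 μg/mL replicate 2 (0.077).

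The median CPM over the introns of a gene listed in all libraries allows the genes to be set beside one another. This level was, at DRB 25 μg/mL, 45.3 and 62.6 for U2AF2, 26.7 and 33.2 for SF1, 18.1 and 24.9 for PUF60, 15.9 and 16.8 for U2AF1, and 13.4 and 11.6 for RBM39. In DMSO it was 34.9 and 43.8 for U2AF2, 20.3 and 21.0 for SF1, 29.96 and 32.6 for PUF60, 26.9 and 29.3 for U2AF1, and 21.4 and 24.5 for RBM39. U2AF2 was the highest per intron in both groups, and SF1, the lowest of the 5 in DMSO, was next to U2AF2 at DRB 25 μg/mL.

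Splice choices within the 5 genes were tested as 4 kinds of event: inclusion of an exon (Ψ, the reads for inclusion over those plus 2 times the reads for skipping), the share of an acceptor among the reads of its donor, the share of a donor among the reads of its acceptor, and the unspliced share of an intron (reads running on across either splice site, over those plus 2 times its split reads). At α-amanitin 1 and 2 μg/mL and at DRB 10 μg/mL, 0 events in the 5 genes passed the quasi-binomial test in any of the 4 kinds. Over the whole series the test called, at these treatments in that order, 0%, 0% and 2.83% of exons (0.708% higher and 2.12% lower in the last), 0%, 0.0245% and 0.0776% of acceptor choices (0.0123% in each direction at α-amanitin 2 μg/mL and 0.0388% in each at DRB 10 μg/mL), 0%, 0.0240% and 0.0266% of donor choices (0.0120% and 0.0133% in each direction), and 0%, 0.0213% (all lower) and 0% of unspliced shares. At an unadjusted p under 0.05 the 5 genes had, of 23, 23 and 40 exons tested, 2, 3 and 10 (11.3%, 24.7% and 22.5% in the series), of 25, 25 and 34 acceptor choices 4, 7 and 12 (11.3%, 23.4% and 19%), of 22, 22 and 30 donor choices 0, 3 and 6 (12.4%, 25.2% and 20%), and of 26 unspliced shares 0, 1 and 4 (7.54%, 15.1% and 11.1%). Fisher's exact test on the reads pooled over libraries, a test that leaves out the spread between them, called 2, 4 and 8 exons (9.37%, 32.4% and 25.4% in the series), 2, 7 and 12 acceptor choices (5.79%, 24.2% and 20.6%), 0, 5 and 7 donor choices (8.29%, 27.5% and 21.5%), and 0, 3 and 5 unspliced shares (6.24%, 19.3% and 16.5%).

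The higher DRB dose gave many calls. Of 40 exons 24 passed at DRB 25 μg/mL, 5 with higher and 19 with lower inclusion, beside 54.5% of 10875 exons in the series (8.32% higher and 46.2% lower). So did 21 of 34 acceptor choices, 10 higher and 11 lower (45.2% in the series, 23.3% higher and 21.8% lower), 15 of 30 donor choices, 7 higher and 8 lower (46.7%, 24.0% higher and 22.7% lower), and 5 of 26 unspliced shares, 3 higher and 2 lower (11.8%, 7.99% higher and 3.79% lower). These calls overlap, since alternative ends of one exon use the same reads and the shares of a pair of sites are complements. The 24 exons rest on 14 non-identical sets of reads, the 21 acceptor choices on 12 and the 15 donor choices on 8. Such sets can still share part of their reads, so these are not counts of separate changes. All 4 counts fell in each refit with 1 library left out, and the acceptor, donor and unspliced kinds lost all their calls in each. The exon calls were all lost without DRB 25 μg/mL replicate 1. Such a refit leaves 1 library in a group and has less power, so a lost call need not have rested on the library left out. The exon count was 18 without DRB 25 μg/mL replicate 2, 20 without DMSO replicate 1 and 17 without DMSO replicate 2.

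In U2AF1 the choice between the alternative 67-nt exons moved at DRB 25 μg/mL. In human cells these exons are mostly used one at a time and give proteins that differ by a few residues. Inclusion of the upstream exon (44521476 to 44521542) was 0.24 and 0.35 at α-amanitin 1 μg/mL, 0.32 and 0.33 at 2 μg/mL, 0.39 and 0.34 at DRB 10 μg/mL and 0.84 and 0.71 at DRB 25 μg/mL, against 0.31 in each DMSO library. The DRB 25 μg/mL libraries alone stood clear of the others. The difference in pooled Ψ was 0.45 at DRB 25 μg/mL (adjusted p = 0.0046), 0.05 at DRB 10 μg/mL (adjusted p = 0.53) and 0.02 at α-amanitin 2 μg/mL (adjusted p = 0.86). A longer form of this exon, reaching to 44522017, has the same donor, and no junction at its own acceptor was listed. Its difference of 0.43 at DRB 25 μg/mL (adjusted p = 0.0081) thus rests on reads shared with the 67-nt exon.

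The reads behind this change were of 3 kinds. The junction from the previous exon into the upstream exon had 38 and 58 split reads at DRB 25 μg/mL, against 42 and 67 in DMSO. The junction past it, straight into the downstream exon (44520563 to 44520629), had 8 and 22 reads at DRB 25 μg/mL, against 112 and 148 in DMSO. The shift between these 2 acceptors was 0.47 (adjusted p = 0.012). These read numbers are not scaled for depth.

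The junction that joins both exons had 8 and 14 reads at α-amanitin 1 μg/mL, 21 and 12 at 2 μg/mL, 19 and 14 at DRB 10 μg/mL and 31 and 39 at DRB 25 μg/mL, against 5 and 8 in DMSO. Each treated group except α-amanitin 1 μg/mL was above DMSO without overlap. Its share at DRB 25 μg/mL among the reads entering the downstream exon was higher by 0.65 (adjusted p = 0.011), and its share among the reads leaving the upstream exon by 0.62 (adjusted p = 0.013). Both exons together add 134 nt, which is not a multiple of 3, and transcripts that hold both are known to carry a premature stop codon. Inclusion of the downstream exon was 0.71 and 0.88 at DRB 25 μg/mL, against 0.69 and 0.72 in DMSO (ΔΨ = 0.10, adjusted p = 0.20).

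**Figure D3:**
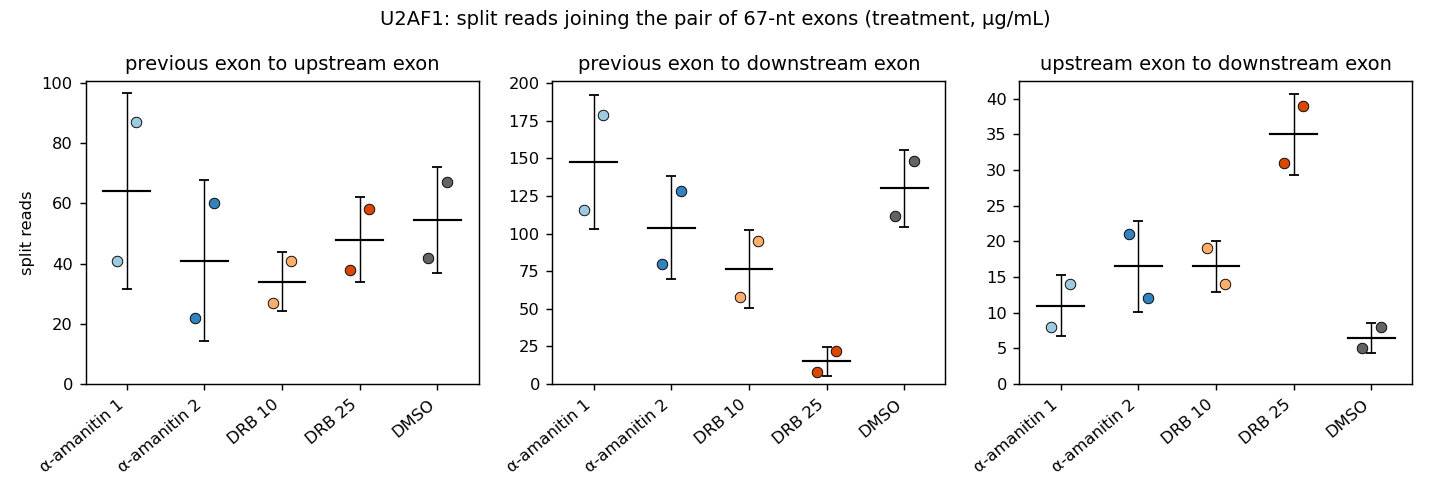
Split reads (linear axes from 0, not scaled for depth) of the 3 U2AF1 junctions around the pair of 67-nt exons in each library, with group means and 1 SD (n = 2). At DRB 25 μg/mL the junction past the upstream exon has 8 and 22 reads, against 112 and 148 in DMSO, and the junction joining both exons has 31 and 39, against 5 and 8 in DMSO.

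U2AF1 exon 5 of 8, a coding exon of 99 nt (44515548 to 44515646), was partly skipped at DRB 25 μg/mL. An unannotated junction ran past it, from the exon edge at 44515804 to that at 44514898, with 31 and 26 reads at DRB 25 μg/mL and 0 and 0 listed in DMSO; of the other libraries only replicate 2 of α-amanitin 2 μg/mL listed it, with 5 reads. Inclusion was 0.53 and 0.69 at DRB 25 μg/mL, against 1.00 in each DMSO library (ΔΨ = -0.38, adjusted p = 0.0042). The length of the exon is a multiple of 3. Its acceptor and that of exon 6, joined in the skip, are shown for comparison, again from GRCh37 with the AG in capitals.
U2AF1 exon 5 (chr21:44515642-44515671, minus strand): ttaaaccactgtggtctcccttcAGgaggt
U2AF1 exon 6 (chr21:44514894-44514923, minus strand): agcacttctgtttttgtcttttcAGtttcg
Pyrimidines made up 70.0% of the scored bases at exon 5 and 85.0% at exon 6. The unspliced share of the U2AF1 intron between 44515853 and 44521476 also passed at DRB 25 μg/mL (higher by 0.21, adjusted p = 0.043), and rested on replicate 1: unspliced reads numbered 14 and 0 at DRB 25 μg/mL, against 0 and 0 in DMSO. Its split reads numbered 17 and 10 at DRB 25 μg/mL, against 54 and 56 in DMSO. Another 2 listed introns share a site with this one, so their unspliced reads cannot be told apart.

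PUF60 exon 5 of 12 (144902836 to 144902886), a coding cassette exon of 51 nt, was mostly skipped at DRB 25 μg/mL. Its inclusion was 0.75 and 0.68 at α-amanitin 1 μg/mL, 0.52 and 0.61 at 2 μg/mL, 0.40 and 0.37 at DRB 10 μg/mL and 0.16 and 0.13 at DRB 25 μg/mL, against 0.78 and 0.60 in DMSO. Both DRB groups were below every α-amanitin and DMSO library. The change passed the test at DRB 25 μg/mL (ΔΨ = -0.53, adjusted p = 0.0074) and not at DRB 10 μg/mL (ΔΨ = -0.29, adjusted p = 0.094) or α-amanitin 2 μg/mL (ΔΨ = -0.10, adjusted p = 0.45). Reads for inclusion numbered 11 and 18 at DRB 25 μg/mL, against 140 and 144 in DMSO, while the skipping junction had 29 and 58 reads at DRB 25 μg/mL, against 20 and 49 in DMSO. These read numbers are not scaled for depth either. The acceptor share of the exon fell by 0.56 (adjusted p = 0.016) and its donor share by 0.47 (adjusted p = 0.014). Longer forms of the exon also passed, on reads into the acceptor that they share with it. Of these, the form reaching 144902403 is annotated and the form reaching 144902596 is not. A further PUF60 exon near the 5′ end (144909555 to 144909706) passed as higher by 0.17 (adjusted p = 0.031) on few reads, 5 and 6 for inclusion at DRB 25 μg/mL and 17 and 11 at α-amanitin 2 μg/mL, against 0 and 0 in DMSO.

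In RBM39 an acceptor inside an intron took most of the reads of its donor at DRB 25 μg/mL. The donor at 34302107 mainly joins the coding exon that begins at 34301018, and the intronic acceptor at 34301779 is annotated only in transcripts marked for nonsense-mediated decay or without a defined coding sequence. As a share of the donor's reads, the intronic acceptor took 0.11 and 0.08 at α-amanitin 1 μg/mL, 0.41 and 0.13 at 2 μg/mL, 0.15 and 0.21 at DRB 10 μg/mL and 0.74 and 0.59 at DRB 25 μg/mL, against 0.00 and 0.06 in DMSO. Every treated library was above both DMSO libraries. The difference passed the test at DRB 25 μg/mL (0.61, adjusted p = 0.013) and not at DRB 10 μg/mL (0.15, adjusted p = 0.20) or α-amanitin 2 μg/mL (0.21, adjusted p = 0.13).

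In reads, the intronic RBM39 acceptor had 17 and 29 at DRB 25 μg/mL, against 0 and 6 in DMSO, and the acceptor at 34301018 had 6 and 20 at DRB 25 μg/mL, against 101 and 98 in DMSO. The exons that open at the intronic acceptor were included more (ΔΨ = 0.45, adjusted p = 0.0054). Reads running unspliced across either end of the longer intron numbered 28 and 21 at DRB 25 μg/mL, against 0 and 4 in DMSO, an unspliced share higher by 0.48 (adjusted p = 0.016). The files list 2 other introns that share a site with this one, so their unspliced reads cannot be told apart.

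RBM39 exon 5 of 17, a coding exon of 66 nt (34317384 to 34317449), was skipped in part of the reads at DRB 25 μg/mL. Reads for inclusion numbered 67 and 91 and reads for skipping 16 and 6 at DRB 25 μg/mL, against 223 and 305 for inclusion and 0 listed for skipping in DMSO. Inclusion was 0.68 and 0.88 at DRB 25 μg/mL, against 1.00 in each DMSO library (ΔΨ = -0.22, adjusted p = 0.0083). The main skipping junction, between 34317287 and 34319863, had 10 and 6 reads at DRB 25 μg/mL (acceptor share higher by 0.19, adjusted p = 0.014, and donor share by 0.16, adjusted p = 0.013), and an unannotated junction between 34313077 and 34326890 added 6 reads in replicate 1, while the annotated acceptor at 34320057 fell by 0.10 as a share of the same donor's reads (adjusted p = 0.019). Other annotated forms of exon 5 passed in the same direction, on reads that they share with it.

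At the 3′ end of RBM39 the donor of the last intron (34292590) joined an acceptor beyond the annotated gene. This acceptor, at 34287832, had 19 and 9 reads at DRB 25 μg/mL and 0 in every other library, while the annotated acceptor at 34292503 had 24 and 25 reads at DRB 25 μg/mL, against 87 and 115 in DMSO. Its share was higher by 0.36 (adjusted p = 0.012), and 9 annotated ends of the last exon, which share these reads, passed as less included. At a donor with this many reads, a listed 0 stands for fewer than 3 reads. Both sites are shown from GRCh37 with the AG in capitals, since the first is not annotated.
RBM39 acceptor beyond the gene (chr20:34287828-34287857, minus strand): tgacgcttccaacctgactttacAGattga
RBM39 annotated last acceptor (chr20:34292499-34292528, minus strand): ccaacatgtctgtttcttttaatAGgtaaa
Each held 70.0% pyrimidines.

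RBM39 also has a poison exon of 73 nt (34328447 to 34328519) near its 5′ end, annotated in 10 transcripts of which 9 are marked for nonsense-mediated decay. Its inclusion was 0.22 and 0.08 at α-amanitin 1 μg/mL, 0.41 and 0.14 at 2 μg/mL, 0.52 and 0.30 at DRB 10 μg/mL and 0.35 and 0.35 at DRB 25 μg/mL, against 0.20 and 0.13 in DMSO. Both DRB groups were above DMSO without overlap, and the α-amanitin groups overlapped it. The exon did not pass at DRB 10 μg/mL (ΔΨ = 0.23, adjusted p = 0.13) or DRB 25 μg/mL (ΔΨ = 0.19, adjusted p = 0.070). The junction that skips it had 31 and 29 reads at DRB 25 μg/mL, against 73 and 122 in DMSO, and as a share of the reads entering the next exon it was lower by 0.22 (adjusted p = 0.048). The acceptors 18 nt apart at 34297178 and 34297196 did not pass: the first took 1.00 and 0.63 at DRB 25 μg/mL, against 0.49 and 0.57 in DMSO (difference 0.23, adjusted p = 0.19).

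**Figure D4:**
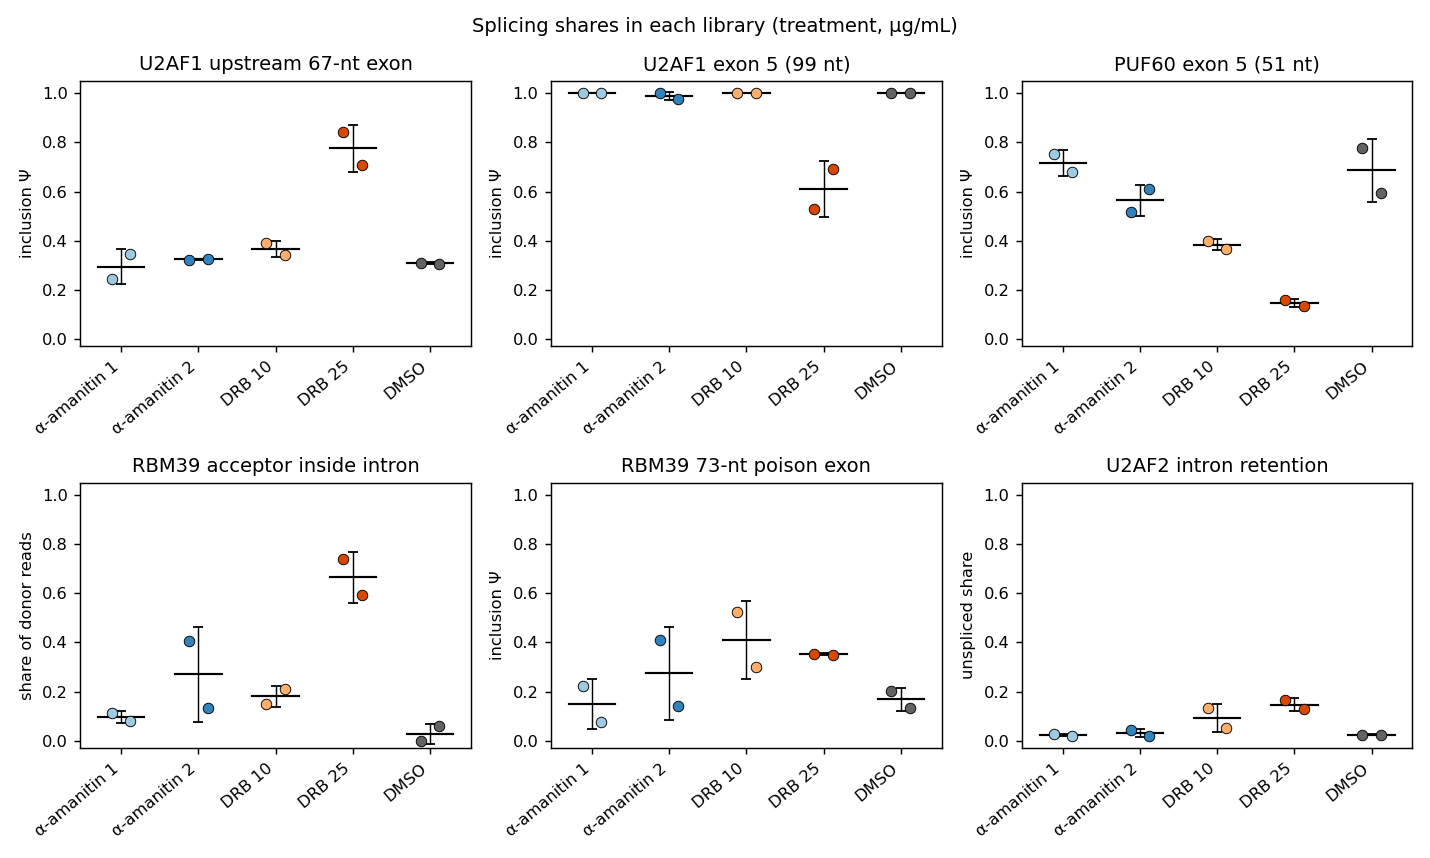
Shares of 6 splicing events in each library (vertical axes from 0 to 1), with group means and 1 SD (n = 2). At DRB 25 μg/mL the U2AF1 upstream exon (0.84 and 0.71) and the RBM39 intronic acceptor (0.74 and 0.59) lie above, and U2AF1 exon 5 (0.53 and 0.69) and PUF60 exon 5 (0.16 and 0.13) below, the DMSO libraries, while the RBM39 poison exon (0.35 and 0.35) and the U2AF2 retained intron (0.16 and 0.13) move less.

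U2AF2 showed smaller changes, also at DRB 25 μg/mL. An unannotated junction ran from 56170711 to 56172404 past exon 3 (45 nt) and exon 4 (104 nt) of 12, with 14 and 12 reads at DRB 25 μg/mL and 0 in every other library. Inclusion at DRB 25 μg/mL was 0.84 and 0.94 for exon 3, against 1.00 in each DMSO library (ΔΨ = -0.09, adjusted p = 0.018), and 0.86 and 0.94 for exon 4, against 1.00 in each (ΔΨ = -0.08, adjusted p = 0.013). The junction's shares among the reads of its donor and of its acceptor were higher by 0.08 (adjusted p = 0.031) and 0.07 (adjusted p = 0.019). A longer form of exon 3 fell by 0.14 (adjusted p = 0.022). It rests on reads into the acceptor shared with exon 3, as no junction at its own donor was listed. An unannotated donor at 56173196, a GC site, had 5 and 0 reads at DRB 10 μg/mL and 5 and 8 at DRB 25 μg/mL, against 0 and 0 in DMSO (share higher by 0.05 at DRB 25 μg/mL, adjusted p = 0.045). It lies inside an exon (56173137 to 56173200) annotated in a transcript marked for nonsense-mediated decay. The junction into that exon had 5 and 5 reads at DRB 25 μg/mL, against 5 and 7 in DMSO. The donor is shown from GRCh37 with the GC in capitals, as the rarer kind.
U2AF2 unannotated GC donor (chr19:56173192-56173221, plus strand): cgaagGCaagtaaggtccattctgactttc

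The U2AF2 intron between 56180158 and 56180449 was retained more often at DRB 25 μg/mL. Neither of its ends lies inside an annotated exon, where transcripts annotated as retained introns were left out of the check. Unspliced reads numbered 14 and 19 at α-amanitin 1 μg/mL, 24 and 16 at 2 μg/mL, 61 and 34 at DRB 10 μg/mL and 56 and 77 at DRB 25 μg/mL, against 13 and 14 in DMSO. The unspliced share was 0.13 and 0.05 at DRB 10 μg/mL (adjusted p = 0.36) and 0.16 and 0.13 at DRB 25 μg/mL, against 0.02 in each DMSO library (difference 0.12 at the higher dose, adjusted p = 0.037). Its splice sites are given from GRCh37 with GT or AG in capitals.
U2AF2 donor of the retained intron (chr19:56180154-56180183, plus strand): atcagGTgagtccccggtcgctggccgctg
U2AF2 acceptor of the retained intron (chr19:56180424-56180453, plus strand): ccgacccctcatcctccaaacacAGgccat

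The next U2AF2 intron has a pair of donors 12 nt apart, and the first is shown from GRCh37, its GT in capitals, because the stretch also holds the second, a GC site.
U2AF2 first donor of the pair (chr19:56180531-56180560, plus strand): cgctgGTgagccccccggcacgtcatcttc
This first donor took 0.78 and 0.81 of the reads at α-amanitin 1 μg/mL, 0.79 and 0.86 at 2 μg/mL, 0.79 and 0.81 at DRB 10 μg/mL and 0.75 and 0.78 at DRB 25 μg/mL, against 0.74 and 0.79 in DMSO. The DRB 25 μg/mL and DMSO libraries overlapped (difference 0.01, adjusted p = 0.90).

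In SF1 no exon passed the test. The unannotated acceptor shown above, 21 nt downstream of the annotated one, had 0 and 4 reads at α-amanitin 1 μg/mL, 9 and 13 at 2 μg/mL, 9 and 9 at DRB 10 μg/mL and 4 and 6 at DRB 25 μg/mL, against 0 and 0 in DMSO. It was listed in 7 of the 8 treated libraries and in neither DMSO library. As a share of its donor's reads it passed at DRB 25 μg/mL (difference 0.05, adjusted p = 0.030) and not at α-amanitin 2 μg/mL (0.07, adjusted p = 0.11) or DRB 10 μg/mL (0.03, adjusted p = 0.18).

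At the 3′ end of SF1 the annotated intron between 64532990 and 64533423, which lies within the last exon of the canonical transcript, had 18 and 61 split reads at DRB 25 μg/mL, against 12 and 13 in DMSO. Its donor took 0.30 and 0.36 of the reads into its acceptor at DRB 10 μg/mL (adjusted p = 0.51) and 0.55 and 0.50 at DRB 25 μg/mL, against 0.26 and 0.25 in DMSO (difference 0.26 at the higher dose, adjusted p = 0.030). The unspliced share of this intron was lower by 0.58 at DRB 25 μg/mL (adjusted p = 0.011), and that of the longer intron with the same acceptor by 0.25 (adjusted p = 0.040). Since their ends lie inside an annotated exon, these reads include transcripts in which the sequence is exon.

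The other annotated SF1 choices did not pass. The alternative last acceptor at 64532990 took 0.48 and 0.59 of the reads of the donor at 64534372 at DRB 25 μg/mL, against 0.39 and 0.45 in DMSO (difference 0.15, adjusted p = 0.095). Of the acceptors 5 nt apart at 64534718 and 64534723, the first took 0.15 and 0.06 at DRB 25 μg/mL, against 0.07 and 0.11 in DMSO (difference -0.01, adjusted p = 0.92).

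Unannotated junctions were rare in these genes outside DRB 25 μg/mL. They made up 0.104% and 0.218% of the pooled split reads of the 5 genes at α-amanitin 1 and 2 μg/mL, 0.314% at DRB 10 μg/mL and 1.88% at DRB 25 μg/mL (185 of 9817 reads), against 0.025% in DMSO (4 of 16193 reads). Over all introns of the series the shares were 0.562%, 0.604%, 0.697% and 1.86%, against 0.543% in DMSO. The share at DRB 25 μg/mL was near that of the whole series and was unevenly held: U2AF1 had 9.92% and 5.50%, RBM39 4.76% and 2.32%, U2AF2 1.47% and 0.928%, SF1 1.25% and 1.19%, and PUF60 0% in each library.

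Other factors of the same step were read as lists, chosen with earlier results known and described by counts alone, beside 14.8% of all genes called at DRB 10 μg/mL and 61.3% at DRB 25 μg/mL, where the median of all genes was -1.02. Of 6 further UHM proteins, 1 rose and 0 fell at DRB 10 μg/mL, and 2 rose and 2 fell at DRB 25 μg/mL (median log2 fold change -0.32). Of 12 U2 snRNP proteins tested, 2 rose and 4 fell at DRB 10 μg/mL, and 3 rose and 5 fell at DRB 25 μg/mL (median -0.03). Of 17 other factors, 3 rose and 1 fell at DRB 10 μg/mL, and 5 rose and 8 fell at DRB 25 μg/mL (median -0.62). Over introns listed in all libraries the medians at DRB 25 μg/mL were -0.28 for 3 UHM proteins (1 rose and 1 fell), -0.25 for 12 U2 snRNP proteins (3 rose and 5 fell) and -0.19 for 14 other factors (4 rose and 5 fell). The median of the genes tested in that fit, fewer than in the main one, was -0.03. With unlisted introns set to 10 reads the medians at DRB 25 μg/mL were -0.05 for the UHM proteins (2 rose and 2 fell), -0.47 for the U2 snRNP proteins (2 rose and 5 fell) and -0.22 for the other factors (3 rose and 7 fell), beside 0.07 for all genes. The 3 lists thus lay above the median of all genes in the main comparison and below it in both of these. At α-amanitin 2 μg/mL 2 genes of the lists (SF3B3 and PTBP1) fell and 0 rose, beside 6.33% of all genes called, and at 1 μg/mL 0 passed. Over introns listed in all libraries, 3 U2 snRNP proteins fell and 0 rose at 2 μg/mL, and 2 other factors rose and 2 fell. With unlisted introns at 10 reads, 1 U2 snRNP protein fell and 0 rose there, and 3 other factors rose and 1 fell. In that setting at DRB 10 μg/mL, 2 U2 snRNP proteins rose and 2 fell, and 2 other factors rose and 0 fell.

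SF3B3, a subunit of the SF3B complex of the U2 snRNP, fell in 3 treatments. Its CPM was 178 and 207 at α-amanitin 2 μg/mL, 206 and 191 at DRB 10 μg/mL and 97.4 and 121 at DRB 25 μg/mL, against 445 and 440.3 in DMSO. The log2 fold changes were -1.19, -1.15 and -2.01 (adjusted p = 0.012, 0.010 and 0.00055). SF3B4, of the same complex, rose to 221 and 203 CPM at DRB 10 μg/mL (log2 fold change 1.18) and 369 and 356 at DRB 25 μg/mL (1.93), against 83.4 and 104 in DMSO. Genes of one complex thus moved in opposite directions.

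PTBP1, which can compete with U2AF2 for pyrimidine tracts, fell in the same 3 treatments as SF3B3. Its CPM was 274 and 322 at α-amanitin 2 μg/mL, 417 and 381 at DRB 10 μg/mL and 344 and 326 at DRB 25 μg/mL, against 586 and 533 in DMSO. The log2 fold changes were -0.90, -0.48 and -0.76 (adjusted p = 0.021, 0.032 and 0.0024, limma). At DRB 10 μg/mL the helicase DDX46 fell (-1.79), and UHMK1, a kinase that phosphorylates SF1, rose (1.496), as did SF3A2 (1.22), SUGP1 (1.01), CHERP (0.97) and CELF1 (0.74).

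The list genes with the largest fitted changes at DRB 25 μg/mL had few or no listed reads in a group, so reads are given with the most that unlisted introns could add, at 10 reads each. RBM5 had 11 and 25 reads at DRB 25 μg/mL (at most 221 and 215), against 412 and 465 in DMSO, RBM10 had 12 and 91 (at most 282 and 311), against 468 and 547 in DMSO, and RBM23, the closest paralogue of RBM39, had 0 and 49 (at most 160 and 169), against 303 and 415 in DMSO. Scaled to CPM, the limits at DRB 25 μg/mL replicate 1 were 100.2 for RBM5, 128 for RBM10 and 72.5 for RBM23, against listed levels of 95.7 and 96.1, 109 and 113, and 70.4 and 85.7 in DMSO. QKI, which can bind branch point sequences, had 12 and 0 (at most 92 and 100), against 154 and 177 in DMSO. U2AF1L4, a paralogue of U2AF1, had 0 and 0 reads at DRB 25 μg/mL (at most 110 in each), against 100 and 85 in DMSO, and SUGP1 had 0 and 0 (at most 130 in each), against 100 and 161 in DMSO. For these 6 genes the scaled limit in at least 1 library of DRB 25 μg/mL reached a level listed in DMSO. A fall in both libraries thus cannot be told from the listing minimum. In replicate 2 the limits were 62.3 for RBM5, 90.1 for RBM10 and 49.0 for RBM23, below both levels listed in DMSO. The QKI limit there was 29.0, against 35.8 and 36.6 listed in DMSO. For U2AF1L4 and SUGP1 the limit reached a DMSO level in both libraries. ZRSR2, a U2AF1 relative that serves minor introns, had 42 and 65 reads at DRB 25 μg/mL, against 0 and 0 in DMSO (at most 50 in each). DDX39B, a helicase that works with U2AF2, had 81 and 66, against 0 and 11 in DMSO (at most 70 and 71). These sums cover 5 introns of ZRSR2 and 7 of DDX39B. Scaled to CPM, ZRSR2 was at 19.0 and 18.8 at DRB 25 μg/mL, above the DMSO limits of 11.6 and 10.3. DDX39B was at 36.7 and 19.1 CPM at DRB 25 μg/mL, above the DMSO limits of 16.3 and 14.7. Any introns shared with another gene were not summed and are outside these limits, so a low sum need not mean a low level of the gene.

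**Figure D5:**
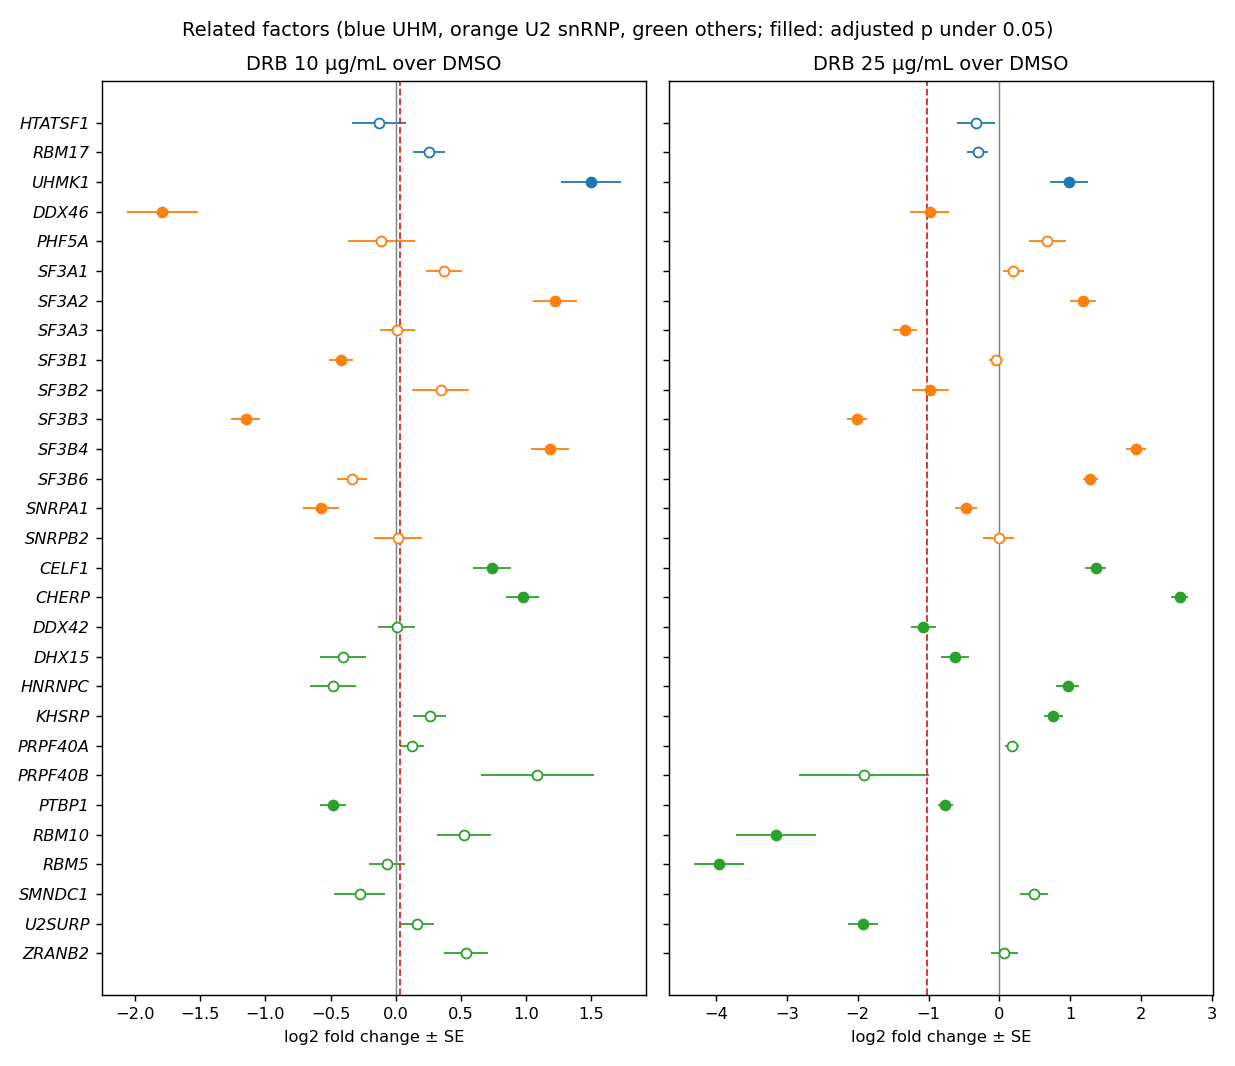
Log2 fold change over DMSO (± SE, scales differ between panels) of related genes at DRB 10 and 25 μg/mL, with filled points for an adjusted p under 0.05 and a dashed line at the median of all genes under TMM. Genes with a library at 0 listed reads are left out, and SF3B3 lies at -1.15 and -2.01, SF3B4 at 1.18 and 1.93.

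The genes whose log2 levels followed each member most closely over the 10 libraries are given as a description, from 6997 genes with a mean of at least 50 split reads. U2AF1 was closest to RBMX (Pearson r = 0.94), FUBP1 (0.94) and HNRNPDL (0.93), and RBM39 to MARCKS (0.94), HNRNPDL (0.93) and HSPA5 (0.91). SF1 was closest to INTS11 (0.98), TRAF7 (0.98) and PSMF1 (0.98), U2AF2 to EIF6 (0.96), RPL22L1 (0.96) and NOP10 (0.96), and PUF60 to UNK (0.94), NRG1 (0.93) and TIMELESS (0.92). Among themselves, U2AF1 and RBM39 had r = 0.88, SF1 and RBM39 r = -0.72, and U2AF1 and SF1 r = -0.68. The points are 5 groups of 2 libraries, so these values follow the treatments.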

How the data were processed

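Per the labels, poly(A)+ RNA of 10 A549 libraries (2 for each of 4 treatments and DMSO) was sequenced with a directional kit. Reads were mapped to GRCh37 by the authors with STAR (2.7.3a in the submitters' notes, another version in the paper's methods), and junctions were counted with IPSA. The deposited tables hold unnormalized read numbers within a text field, recorded as unit other: split and unspliced reads per intron, and inclusion, skipping and retention reads per exon. The deposited Ψ differed by over 0.005 from inclusion/(inclusion + 2 × skipping) in 0 of 1993591 values. Introns are listed from a sum of 11 split, competing and unspliced reads. Unlisted ones were set to 0 reads, and for gene sums this can hide up to 10 reads each.

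GENCODE v44lift37 matched 87.1% of introns, and the 2254 introns that belong to several genes were not summed. An artifact gene model over U2AF1 was passed over. Gene sums were tested with limma 3.58.1 (voom, TMM, R 4.3.3) over the 6 libraries of one drug and DMSO, where a gene had 10 reads or more in 2 libraries and 15 in all. Events needed 10 reads in every library of the fit and 10 on each side in all. They were tested with a quasi-binomial F test whose spread limma moderated towards a trend with depth (floor 1), as the unit is not one that count tools accept here. This trend was chosen on simulated data after calls without it had been seen. P-values were adjusted by Benjamini-Hochberg over the whole table (threshold 0.05).

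In simulated data for DRB 25 μg/mL against DMSO (8957 and 8963 genes), voom recovered 77% and 28% of log2 changes of 1 at spreads of 0.1 and 0.2, and 93% and 86% of changes of 2, with 10 false calls of 180 and 11 of 125. Over 10875 exons, the event test was run on changes of 1, 2 and 4 in log2 odds. With spread 0.005 it recovered 1.5%, 30.3% and 63.6% (6 false calls of 69). With spread 0.02 it recovered 1.5%, 16.7% and 51.5% (6 of 52). Most changes of 1 were thus missed in these runs. The runs called 180 and 125 genes and 69 and 52 exons, against 5792 genes and 5929 exons in the libraries at DRB 25 μg/mL. Recovery with that many calls was not tested.

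Named were the 5 genes, their called events, up to 4 events a gene with the largest difference, events known beforehand from the literature, up to 8 called list genes a comparison, and the 3 genes closest to each member. Members and lists were chosen with earlier results of these data known. Sequences came from the GRCh37 genome, and none is shown for PUF60. A list gene and an event are not reported here. Alternatives were other scalings, filters, sets of libraries, each library left out, a replicate block, Fisher's exact test and, added after seeing the data, unlisted introns at 10 reads and the event test without the trend. Figures and tables used Python 3.11.15, pandas 2.3.3 and matplotlib 3.10.9.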

Additional observations from a re-analysis of the deposited data

Results flagged for a closer look

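Between the DRB doses 2 of the 5 genes differed by the limma test of the difference itself. U2AF2 was higher at 25 than at 10 μg/mL, with a log2 difference of 0.68 (adjusted p = 0.015). SF1 was lower at 25 than at 10 μg/mL, with a log2 difference of -0.49 (adjusted p = 0.013). Over introns listed in all libraries the values were 0.40 for U2AF2 (adjusted p = 0.037) and -0.75 for SF1 (adjusted p = 0.00019), and with unlisted introns at 10 reads they were 0.17 (adjusted p = 0.70) and -0.96 (adjusted p = 0.037). The shift of other genes between the doses moves with these values, and its part in them was not tested.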

How the results depend on the processing

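Of 65 event calls at DRB 25 μg/mL, 622 alternatives gave 371 that stayed past the threshold in the same direction and 251 that did not, 226 of these from leaving out a library or the replicate block, and 0 that reversed. Of 360 alternatives for fold changes of the genes, 285 kept direction and side of the threshold, 40 lost the call, 18 gained it and 17 reversed. Reversed values were, for SF1 at α-amanitin 1 μg/mL, 0.067 under total reads, 0.020 over introns listed in all libraries, 0.14 with unlisted introns at 10 reads and -0.055 to 0.044 with 1 library left out. With unlisted introns at 10 reads U2AF1 and U2AF2 at that dose were 0.0057 and 0.042, U2AF2 and SF1 at DRB 25 μg/mL -0.027 and -0.060, and RBM39 between the DRB doses -0.32. Under total reads U2AF2 and SF1 at DRB 25 μg/mL were -0.040 and -0.064, and RBM39 between the DRB doses -0.46. Over introns listed in all libraries RBM39 between the DRB doses was -0.20. In a fit of the 2 DRB groups alone U2AF1 was at 0.0015. With 1 library left out, U2AF2 ran from -0.26 to 0.032 at α-amanitin 1 μg/mL and from -0.32 to 0.031 between the α-amanitin doses. The number of the 5 genes called (2 at α-amanitin 2 μg/mL, 3 at each DRB dose, 2 between DRB doses) was, at α-amanitin 2 μg/mL, 0 with only the 2 groups in the fit, 4 with the replicate block (adding U2AF1 at -0.55, adjusted p = 0.014, and U2AF2 at -0.26, adjusted p = 0.032), 1 with unlisted introns at 10 reads and 0 to 3 with 1 library left out. At DRB 10 μg/mL it was 0 with unlisted introns at 10 reads and 0 to 0 with 1 library left out. At DRB 25 μg/mL it was 5 with median-of-ratios factors, 5 with the replicate block (adding U2AF2 at 0.43, adjusted p = 0.021, and PUF60 at -0.41, adjusted p = 0.038) and 1 to 4 with 1 library left out. Between the DRB doses it was 1 with only the 2 groups, 4 over introns listed in all libraries and 0 to 1 with 1 library left out. Total reads moved the share of higher calls among all genes called to 50.6% at α-amanitin 2 μg/mL, against 38.8% under TMM, to 66.3% at DRB 10 μg/mL, against 55.9%, and to 21.7% at DRB 25 μg/mL, against 32.9%. With unlisted introns at 10 reads these shares were 69.6%, 52.9% and 33.5%. Pooling the reads and using Fisher's exact test gave 2, 4 and 8 exons at α-amanitin 1 and 2 and DRB 10 μg/mL, 2, 7 and 12 acceptor choices, 5 and 7 donor choices at the last 2 of these, and 3, 5 and 15 unspliced shares at α-amanitin 2, DRB 10 and DRB 25 μg/mL. At DRB 25 μg/mL the 5 unspliced shares became 3 at a minimum of 20 reads, 2 with no minimum, 0 with only the 2 groups and 0 with the replicate block. The 21 acceptor choices became 0 and the 15 donor choices 0 with the replicate block, and the donor choices were 8 with unlisted introns at 2 reads. With 1 library left out, exons ran from 0 to 20 and the other 3 kinds from 0 to 0. The event test without the trend, added after seeing the data, gave 24 exons, 21 acceptor choices, 15 donor choices and 4 unspliced shares. Replicate numbers were not treated as pairs: differences between replicates 1 and 2 correlated at 0.17 to 0.47 among DMSO, DRB 10 μg/mL and both α-amanitin groups and at -0.0083 to 0.055 with DRB 25 μg/mL. Where not stated, the cause was not tested. The listing minimum limits low introns most at DRB 25 μg/mL.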
